A study of Mus musculus with 6 samples.

Results

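Kinesins are motor proteins that burn ATP to walk along microtubules or to take microtubule ends apart. The kinesin genes described here were those whose name matched Kif followed by a number and at most one of the letters a to c, with the abundance of all their annotated or annotation-overlapping isoforms added up per gene. By this rule 36 of the 29057 genes in the table of isoforms were kinesins, with 187 of 93552 isoforms, and 71 of the 17440 circular RNAs (circRNAs) in the series came from 24 kinesin hosts. The rule used names and no measured level. The kinesins were sorted by known role into 11 mitotic motors, 15 transport motors and 10 motors of cilia and other functions.

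RNA was measured in the spinal cord of 8-week-old male mice of the inbred C57BL/6 strain. The injured group (TSCI) had the cord exposed by removal of the arches of thoracic vertebrae 8 to 10 and then received a moderate traumatic injury from a dropped weight, and the sham group had the same laminectomy without the weight. Each group had 3 libraries, and of the 48 mice in sets of 8 the labels do not say whether a set was pooled, nor how long after surgery tissue was taken, so the p-values measure only the spread between these libraries, which may be technical. The libraries were of total RNA depleted of ribosomal RNA, so they hold linear and circular transcripts of every cell in the cord.

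A dividing cell builds its spindle with kinesins: some push the poles apart, some move chromosomes, some shorten microtubules, and a last set organises the midzone where the cell is cut. Their transcripts are made mostly in the later phases of the cell cycle and are scarce in cells that do not divide. Neurons, which do not divide, depend on another set of kinesins that carry vesicles, mitochondria and other cargo out along the axon, while a few kinesins serve cilia. In bulk tissue, fewer cells of a type and less RNA per cell cannot be told apart.

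The libraries differed in ways that the groups do not explain. The aligned bases implied by the deposited values ranged from 4.46 to 9.16 gigabases per library. Intronic isoforms took 9.76% of the bases of TSCI replicate 1 and 10.2% of those of sham replicate 1, the libraries run in lane 8, against 1.98% to 3.83% elsewhere. In sham replicate 2, the only library of lane 3, 2451 of the 16740 tested genes were at 0, while 409 to 762 were in the others. Results are therefore given for all libraries and also for lane 8 alone (1 library a group) and lane 1 alone (2 TSCI libraries and 1 sham library). Neurons and oligodendrocytes were represented in every library, with summed FPKM (fragments per kilobase of isoform, scaled for depth) of 597 to 1263 over 8 neuronal markers and 905 to 6172 over 5 oligodendrocyte markers. Skeletal muscle markers were also present, at a summed 0.334 to 7.88 FPKM in TSCI and 1.39 to 81.2 in sham.

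All 11 kinesins sorted as mitotic had every TSCI value above every sham value. Together they summed to 44.8, 24.6 and 58.6 FPKM in TSCI replicates 1 to 3 and to 3.90, 2.91 and 2.29 FPKM in sham replicates 1 to 3. Among all 16740 genes tested, 13.4% lay above sham in the same way and 3.13% below it. The median log2 difference of the 11 genes, on the log2(FPKM + 0.5) scale, was 2.26, or 1.82 above the 0.44 that was the median of all genes tested. Kif20a was the only kinesin past an adjusted p of 0.05 (limma, Benjamini-Hochberg over all genes), 1 of the 10 mitotic kinesins tested, where 0.878% of all genes passed as higher in TSCI and 0.0119% as lower. Genes were tested at a mean of at least 0.5 FPKM, and 9 of the 11 mitotic kinesins had a sham mean under 0.5 FPKM, so most entered the test through their TSCI values. The 11 of 11 also rests on how the roles were sorted. Kif2a, a relative of Kif2c placed with cilia and other functions, overlapped between the groups.

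**Figure D1:**
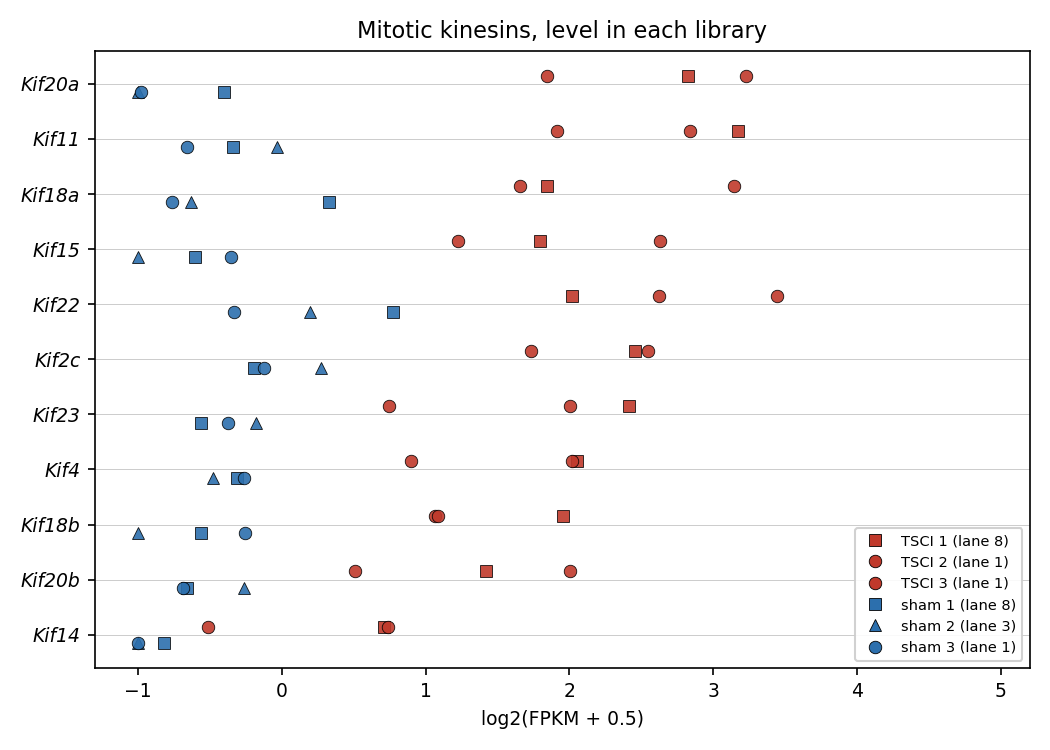
Level of the 11 mitotic kinesin genes in each library, as log2(FPKM + 0.5), with TSCI in red, sham in blue and the marker shape giving the sequencing lane. In each gene the 3 red points lie to the right of the 3 blue points, and a value of -1 means that the gene was listed at 0.

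The kinesins of the midzone and of cytokinesis included the gene that passed the test. Kif20a (ENSMUSG00000003779, chr18:34624613-34633277), which brings the chromosomal passenger complex to the central spindle, was at 6.58, 3.10 and 8.85 FPKM in the TSCI libraries (replicates 1 to 3, in that order here and below) against 0.258, 0 and 0.00761 FPKM in the sham libraries. The groups did not overlap, and the lowest TSCI library was replicate 2. Its log2 difference was 3.42 ± 0.67 (SE; limma, adjusted p = 0.0286, n = 3 per group), with 3.22 in lane 8 alone and 3.51 in lane 1 alone. The call did not survive leaving out TSCI replicate 1, 2 or 3 or sham replicate 2 or 3 (limma adjusted p 0.0569 to 0.265), and it held without sham replicate 1 (0.00232) and without both lane 8 libraries (0.0168). With only isoforms that match the annotation exactly, the difference was 1.82 (adjusted p = 0.427), and over all alternative settings the adjusted p ran from 0.00232 to 0.427.

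Kif23 (chr9:61915905-61946774), the motor of the centralspindlin complex, was at 4.84, 1.18 and 3.52 FPKM in TSCI against 0.176, 0.381 and 0.273 in sham. All 3 TSCI libraries were higher, by 2.10 ± 0.67 on the log2 scale, but the test was not passed (limma adjusted p = 0.193). Kif20b (chr19:34922361-34975745), a relative of Kif20a that acts late in cytokinesis, was at 2.18, 0.925 and 3.51 FPKM against 0.133, 0.334 and 0.120, without overlap (log2 difference 1.85 ± 0.65, adjusted p = 0.249). Kif14 (chr1:136466343-136531511), which works with citron kinase in cytokinesis, was the least abundant of the 11 and was not tested. Its TSCI libraries were at 1.14, 0.2 and 1.17 FPKM against 0.0658, 0 and 0 FPKM for sham, so TSCI replicate 2 lay close to the sham libraries.

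The motors that hold the spindle poles apart showed the same order. Kif11 (ENSMUSG00000012443, chr19:37376403-37421859), also called Eg5, slides antiparallel microtubules apart, and was at 8.52, 3.27 and 6.66 FPKM in TSCI against 0.290, 0.478 and 0.134 in sham. These means, 6.15 ± 2.66 against 0.301 ± 0.172 FPKM (SD, n = 3 each), were 20.5-fold apart. They rested on 125, 125 and 294 kilobases of aligned sequence in TSCI and on 8.28, 11.1 and 5.29 kilobases in sham. On the log2 scale Kif11 differed by 2.99 ± 0.67 and narrowly missed the threshold (limma adjusted p = 0.0542). Kif15 (chr9:122951046-123018733), which can stand in for Kif11 in keeping a spindle bipolar, was at 2.96, 1.84 and 5.68 FPKM against 0.157, 0 and 0.281 (log2 difference 2.54 ± 0.66, adjusted p = 0.0918). When isoforms of every class were summed, the Kif15 difference was 0.93 (limma adjusted p = 0.858; 0.0151 to 0.858 over all alternative settings).

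Motors that act on chromosomes came next. Kif22 (chr7:127027729-127042471), a chromokinesin that pushes chromosome arms outward, was at 3.54, 5.65 and 10.4 FPKM in TSCI against 1.21, 0.644 and 0.295 in sham. Kif22 was the sole mitotic kinesin with its lowest TSCI value in replicate 1, and its log2 difference was 2.48 ± 0.69 (limma adjusted p = 0.116). Kif4 (chrX:100625737-100727214), a chromokinesin that also works with Prc1 at the midzone, was at 3.65, 1.37 and 3.55 FPKM against 0.308, 0.217 and 0.332. All TSCI libraries of Kif4 were above all sham libraries, with a log2 difference of 2.01 ± 0.65 (adjusted p = 0.194).

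The kinesins that shorten or restrain microtubule ends followed. Kif18a (chr2:109280738-109341747), which damps the swings of chromosomes at the spindle equator, was at 3.08, 2.65 and 8.35 FPKM in TSCI against 0.754, 0.144 and 0.0885 in sham (log2 difference 2.57 ± 0.70, limma adjusted p = 0.106). Kif18b (chr11:102905529-102925124), which shortens astral microtubules, was at 3.37, 1.59 and 1.63 FPKM against 0.176, 0 and 0.338 (1.98 ± 0.63, adjusted p = 0.193). Kif2c (chr4:117159639-117182639), also called MCAK, removes tubulin from microtubule ends at centromeres without walking, and was at 4.98, 2.83 and 5.33 FPKM against 0.376, 0.708 and 0.420 (2.26 ± 0.65, adjusted p = 0.132). None of these 3 genes overlapped between groups, and none passed the test.

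Among the TSCI libraries the mitotic kinesins shared much of their order. Replicate 2 was the lowest of the 3 in 10 of the 11 genes. Replicate 3 was the highest in 7 genes and replicate 1 in the other 4. In sham, 5 of the 33 values were listed at 0, 4 of them in sham replicate 2 and 1 in sham replicate 3, and no TSCI value was 0. The difference was positive in all 11 genes (69.9% of all genes were positive over the 6 libraries), also in lane 8 alone, with a median of 2.40, and in lane 1 alone, with a median of 2.26. Without the lane 8 libraries 4 mitotic kinesins passed (Kif11, Kif18a, Kif20a and Kif22), where 616 of about 15770 genes passed in all (limma). Without sham replicate 1 there were 6, Kif15 and Kif2c being the additional genes, where 1448 of about 16430 genes passed in all. With all libraries 149 genes passed, so the calls rose over the whole table too. No mitotic kinesin passed when any TSCI library, sham replicate 2 or sham replicate 3 was left out, while the median stayed between 2.11 and 2.52 over the libraries left out.

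Promoter sequences of the mitotic kinesins are shown because the groups did not overlap in any of these genes and because promoters of genes of the late cell cycle often carry a pair of short elements. The cell cycle genes homology region (CHR; searched as TTTGAA or TTCGAA) is known as a binding element of the MuvB complexes, and the CCAAT box (searched as CCAAT) as one of NF-Y; a match to one can overlap a match to the other by a single base at most. The stretches below run from 70 bases before to 30 bases after the RefSeq start (RefSeq sequences, build GRCm38.p6), 5′ to 3′ on the strand of the gene. Capitals mark every match to either motif on either strand, so that a CHR on the opposite strand reads TTCAAA and a CCAAT box reads ATTGG.
Kif11, chr19:37376312-37376411, plus strand: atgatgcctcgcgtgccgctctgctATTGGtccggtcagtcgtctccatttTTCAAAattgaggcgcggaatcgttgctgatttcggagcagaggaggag
Kif15, chr9:122951011-122951110, plus strand: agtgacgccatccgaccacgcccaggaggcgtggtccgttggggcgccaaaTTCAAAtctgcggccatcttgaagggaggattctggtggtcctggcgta
Kif22, chr7:127042391-127042490, minus strand: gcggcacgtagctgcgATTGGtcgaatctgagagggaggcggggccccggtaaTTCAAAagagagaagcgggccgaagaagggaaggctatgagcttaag
Kif18b, chr11:102925095-102925194, minus strand: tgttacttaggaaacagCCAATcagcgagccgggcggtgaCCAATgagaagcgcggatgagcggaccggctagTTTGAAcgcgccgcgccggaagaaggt
Kif20b, chr19:34922288-34922387, plus strand: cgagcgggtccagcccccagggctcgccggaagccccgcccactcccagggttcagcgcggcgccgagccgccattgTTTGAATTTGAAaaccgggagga
Kif23, chr9:61946770-61946869, minus strand: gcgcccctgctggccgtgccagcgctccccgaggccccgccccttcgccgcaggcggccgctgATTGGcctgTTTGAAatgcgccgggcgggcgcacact
Kif4, chrX:100625995-100626094, plus strand: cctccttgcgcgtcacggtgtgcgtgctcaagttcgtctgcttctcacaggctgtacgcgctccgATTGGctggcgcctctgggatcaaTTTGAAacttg
Kif18a, chr2:109280668-109280767, plus strand: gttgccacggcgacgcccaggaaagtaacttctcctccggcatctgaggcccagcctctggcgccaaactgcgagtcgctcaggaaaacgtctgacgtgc

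In Kif11, Kif15 and Kif22 the CHR letters lay just before the start, from base -19 to -14, -19 to -14 and -17 to -12, and in Kif18b, Kif20b, Kif23 and Kif4 they lay just after it. In Kif20b a pair of CHR matches followed directly on each other, from base 8 to 19 after the start. Kif18a had no match in the window searched. In Kif14 and Kif2c, whose stretches are not shown, the CHR letters lay further upstream, from base -228 to -223 and from -103 to -98. Over the whole window of 300 bases (250 before and 50 after the start), 9 of the 10 mitotic kinesins with a promoter in the table (all but Kif20a) held a CHR match, and so did 1 of 11 transport kinesins, Kif1a, and 3 of 9 kinesins of cilia and other functions, where 21.7% of 27025 genes did. A CCAAT box was in 6 of the 10, 3 of the 11 and 4 of the 9, where 41.1% of all genes had one. Both motifs were in 6 of the 10 mitotic kinesins, 0 of the 11 transport kinesins and 3 of the 9 others (Kif24, Kif26b and Kif27), where 9.65% of all genes had both. The Kif1a, Kif2c and Kif4 matches lay at RefSeq starts inside the gene, away from the start of the isoform of highest mean FPKM. For Kif4 that isoform starts at chrX:100625737, upstream of the stretch shown. All matches are descriptions of letters and were not tested as binding sites.

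Partners of the mitotic kinesins were higher in TSCI as well. Of 20 genes of the spindle and of cytokinesis, 6 rose (Aurka, Aurkb, Cdca8, Ccnb1, Ccnb2 and Cdk1; limma, adjusted over all genes; 0.878% of all genes passed as higher) and 0 fell. Without overlap, 18 of the 20 lay above sham, where 13.4% of all genes did, and the median log2 difference was 2.70. Cdca8, a subunit of the chromosomal passenger complex that Kif20a carries, was at 7.03, 11.9 and 9.65 FPKM in TSCI against 0.410, 0 and 0.0113 in sham (limma adjusted p = 0.0136). For Aurkb, the kinase of that complex, TSCI libraries were at 4.25, 2.06 and 5.47 FPKM while all 3 sham libraries were listed at 0 (adjusted p = 0.0402). Prc1, the microtubule bundler that Kif4 works with, was at 14.8, 5.10 and 22.6 FPKM against 2.54, 0 and 0.0493, and missed the threshold (adjusted p = 0.0542). Anln and Numa1 were the 2 genes that overlapped.

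Markers of other cells were compared beside the mitotic kinesins; over all genes, 13.4% lay above sham without overlap and 0.878% passed as higher. All 6 proliferation markers lay above sham without overlap, 4 passed (Mki67, Top2a, Mcm5 and Rrm2), and their summed level was 141 to 258 FPKM in TSCI against 20.7 to 47.8 in sham. Top2a, the topoisomerase of dividing cells, was at 23.3, 13.4 and 30.5 FPKM against 1.44, 0.117 and 0.816 (log2 difference 4.22 ± 0.69, limma adjusted p = 0.0136). Of 8 markers of microglia and macrophages 5 lay above sham, 3 overlapped (Aif1, Cx3cr1 and P2ry12) and 2 passed (Cd68 and Itgam), with a summed 198 to 258 FPKM against 34.0 to 50.8. For oligodendrocyte precursors, which divide in the adult cord, 2 of 4 markers (Pdgfra and Cspg4) lay above sham and 0 passed, with a summed 25.7 to 44.3 FPKM against 7.10 to 16.5. Gpr17 and Olig2 overlapped between the groups, with log2 differences of 1.35 and -0.73. No marker of these 3 lists was at 0 in every library, and the part of these cells in the kinesin values was not tested.

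The transport kinesins were far more abundant and showed no such separation. All 15 overlapped between the groups, 0 passed the test (lowest adjusted p 0.718, limma; 0 also at an unadjusted p under 0.05, where 11.8% of all genes lay), and their summed level was 552, 180 and 297 FPKM in TSCI replicates 1 to 3 against 859, 104 and 197 in sham replicates 1 to 3. Their log2 differences ran from -0.34 to 0.95 with a median of 0.31, which is 0.13 below that of all genes, and median-ratio scaling gave a median of -0.12 and quantile normalization one of -0.23. Every transport kinesin was highest in a lane 8 library, 12 of the 15 in sham replicate 1, and 12 of the 15 were lowest in sham replicate 2. In lane 8 alone the median difference was -0.58, with 3 of 15 positive, where the median of all genes tested was 0.04. In lane 1 alone it was 0.46, with 13 of 15 positive, close to the 0.47 of all genes tested. The sign thus depended on the lane, and only in lane 8, with 1 library a group, did the median lie apart from that of all genes. The transport median was also 1.15 without sham replicate 1 (0.80 over all genes) and -0.23 without sham replicate 2 (0.21 over all genes).

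**Figure D2:**
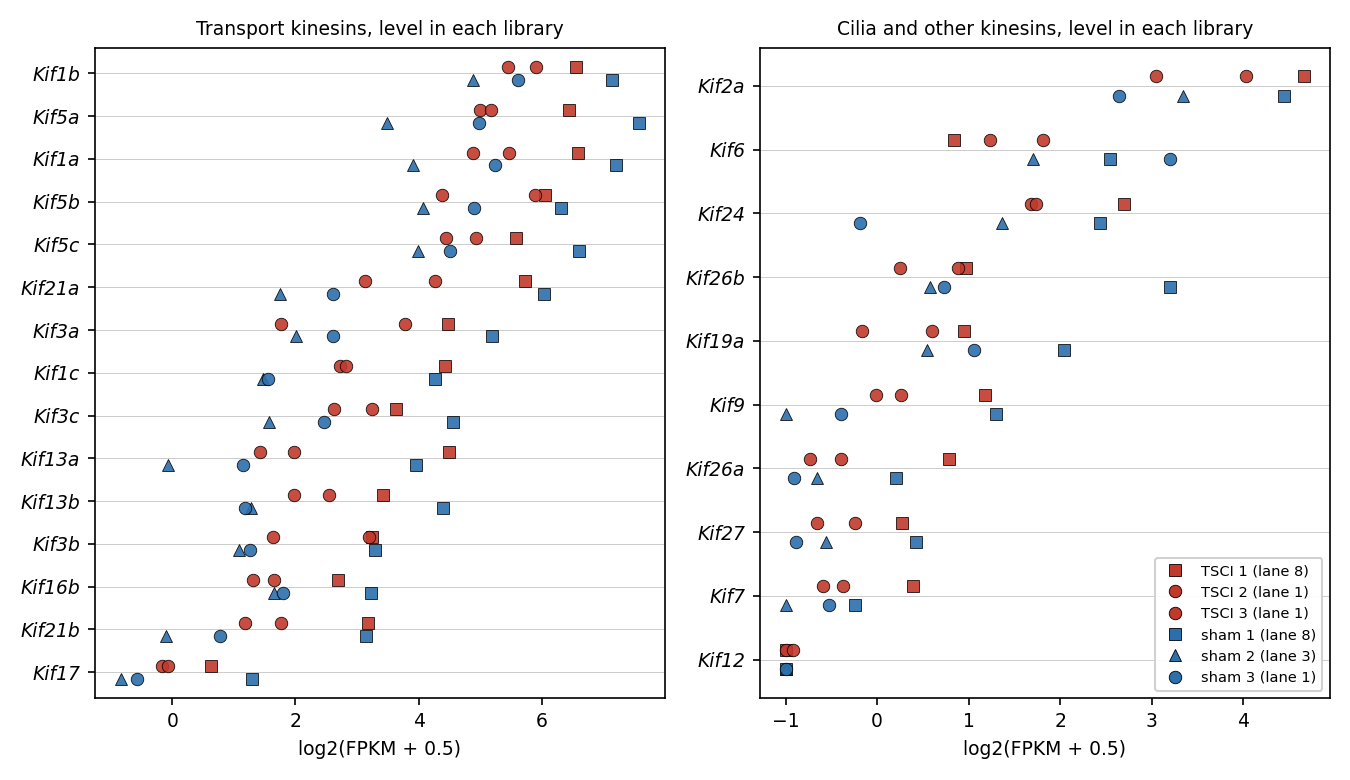
Level of the 15 transport kinesins (left) and the 10 kinesins of cilia and other functions (right) in each library, as log2(FPKM + 0.5), with TSCI in red, sham in blue and the marker shape giving the lane. Red and blue points overlap in every gene, and in each transport kinesin a square (lane 8) lies furthest to the right.

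Kif5a (ENSMUSG00000074657, chr10:127225696-127263348), the neuronal heavy chain of conventional kinesin, was at 86.4, 31.2 and 35.4 FPKM in TSCI against 190, 10.7 and 31.1 in sham. The highest and the lowest of its 6 values were both in sham. Its log2 difference was 0.18 ± 0.94 (limma adjusted p = 0.959), with -1.14 in lane 8 alone and 0.10 in lane 1 alone. Kif1b (chr4:149176319-149307693), a carrier of mitochondria and synaptic vesicle precursors, was at 93.3, 43.3 and 59.2 FPKM against 140, 28.9 and 48.6, with a log2 difference of 0.09 ± 0.78 (adjusted p = 0.976). For Kif5a and Kif1b the sign of the difference turned with either scaling, so no direction is given.

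Other long-range carriers gave the same picture. Kif1a, which brings synaptic vesicle precursors down the axon, was at 96.0, 29.0 and 43.6 FPKM in TSCI against 147, 14.5 and 37.2 in sham. The heavy chains Kif5b and Kif5c were at 65.7, 20.2 and 58.5 against 78.6, 16.2 and 29.3 FPKM and at 47.1, 21.4 and 29.8 against 96.2, 15.3 and 22.3 FPKM. In mean FPKM over the 6 libraries the order was Kif1b (68.8), Kif5a (64.2), Kif1a (61.2), Kif5b (44.7) and Kif5c (38.7), and these genes were not tested against each other. The sum of the neuronal markers was likewise highest in sham replicate 1 (1263 FPKM) and lowest in sham replicate 2 (597 FPKM), with 0 of 8 past the test, and its part in the transport kinesins was not tested.

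The transport kinesins of lowest p were Kif1c, Kif3b and Kif13a. Kif1c, a ubiquitous carrier of vesicles, was at 21.1, 6.08 and 6.52 FPKM in TSCI against 18.7, 2.27 and 2.44 in sham (log2 difference 0.89 ± 0.83, limma adjusted p = 0.718). Kif3b, a motor subunit of the heterotrimeric kinesin of cilia and axons, was at 9.01, 2.59 and 8.62 against 9.23, 1.62 and 1.90 FPKM (0.81 ± 0.78, adjusted p = 0.724). Kif13a, an endosomal motor, was at 21.9, 2.19 and 3.43 against 15.04, 0.458 and 1.71 FPKM (0.95 ± 1.02, adjusted p = 0.757). In each of the 3 genes the highest value of each group was in a lane 8 library, although for Kif3b TSCI replicate 3 (8.62 FPKM) was close to replicate 1 (9.01 FPKM). The other members (Kif3a, Kif3c, Kif13b, Kif16b, Kif17, Kif21a and Kif21b) had adjusted p of 0.765 to 0.987.

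**Figure D3:**
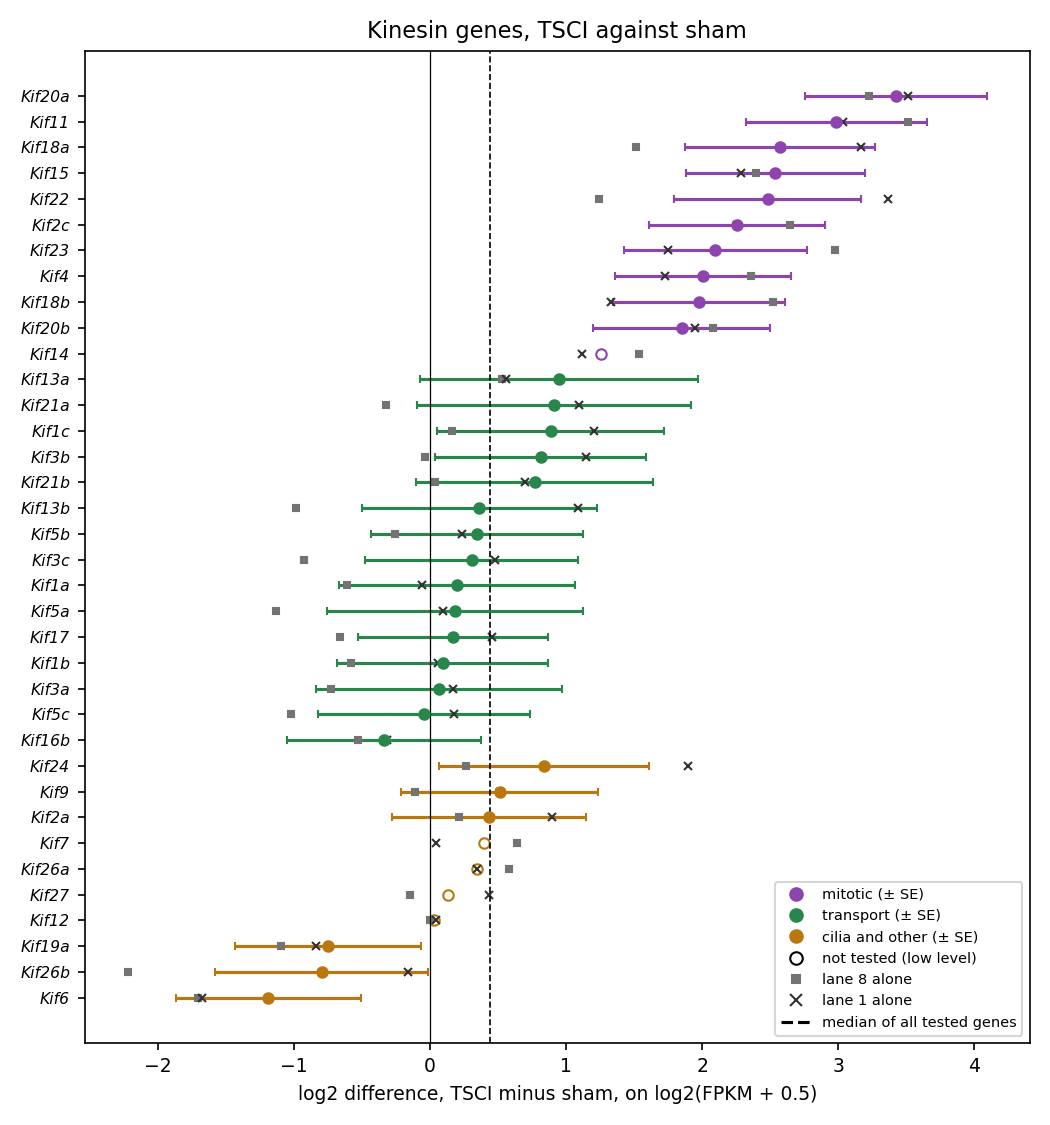
Log2 difference between TSCI and sham for the 36 kinesin genes, on log2(FPKM + 0.5), with bars of 1 SE from limma, grey squares for lane 8 alone and crosses for lane 1 alone; open circles were too low to be tested, and the dashed line is the median of all genes tested (0.44). The 11 mitotic kinesins lie from 1.25 to 3.42, to the right of every other kinesin, and the squares and crosses of the transport kinesins often fall on opposite sides of 0.

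Among the 10 kinesins of cilia and other functions all overlapped, 6 were tested and 0 passed (limma; lowest adjusted p 0.540; 0 at an unadjusted p under 0.05). Kif6, a kinesin of motile cilia in the ependyma, was at 1.30, 3.01 and 1.84 FPKM in TSCI against 5.34, 2.76 and 8.67 in sham. Sham replicate 2 fell inside the TSCI range, and the log2 difference was -1.19 ± 0.68 (adjusted p = 0.540), with -1.70 in lane 8 alone and -1.68 in lane 1 alone. Kif19a, which trims the tips of cilia, was at 1.43, 0.394 and 1.02 FPKM against 3.62, 0.954 and 1.58 (-0.75 ± 0.69, adjusted p = 0.709). Kif24, which removes tubulin at centrioles, was at 5.99, 2.69 and 2.83 against 4.90, 2.07 and 0.375 FPKM (0.84 ± 0.77, adjusted p = 0.709). Kif2a, a relative of Kif2c that also shortens microtubules, was the most abundant of the group at 24.8, 7.73 and 15.8 against 21.3, 9.66 and 5.72 FPKM (0.43 ± 0.71, adjusted p = 0.846). Kif7, Kif12, Kif26a and Kif27 were too low to be tested, and Kif12, a kinesin of kidney epithelium, was listed at 0 in 5 of 6 libraries. Of 5 ependymal markers 1 (Foxj1) lay above sham and 0 passed, with a summed 4.10 to 9.93 FPKM in TSCI against 6.47 to 13.0 in sham. The other markers overlapped, with log2 differences of -1.71 for Ccdc153, -0.49 for Rsph1, 0.73 for Dnah11 and 0.51 for Tmem212.

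Microtubule genes outside the name rule gave no call. Of 20 kinesin cofactors and kinesins with other names 0 passed (limma), and 4 lay above sham without overlap, where 13.4% of all genes did: Cenpe, Kifc1, Klc3 and Kifc5b. Klc3 is a light chain of conventional kinesin. Cenpe, the kinetochore kinesin that carries chromosomes to the equator, was at 7.24, 1.33 and 3.65 FPKM in TSCI against 0.276, 0 and 0.539 in sham (log2 difference 2.40 ± 0.72, adjusted p = 0.152). Kifc1, a minus-end motor that bundles the spindle, was at 2.62, 1.91 and 3.94 against 0.418, 0.611 and 0.125 FPKM (1.90 ± 0.65, adjusted p = 0.226). Kifc5b is a close copy of Kifc1, so reads may be split between them. Of 21 genes of dynein and dynactin, the motor of retrograde transport, 0 passed, 1 (Dctn2) lay above sham, where 13.4% of all genes did, and the median difference was 0.28.

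Isoform values varied more than gene values. Of 97 kinesin isoforms tested 0 passed (limma; lowest adjusted p 0.565), where 0.0347% of 40383 isoforms did. With p under 0.05 before adjustment 9 isoforms were higher, 7 of them of mitotic kinesins, where 5.1% of all isoforms were higher, and 1 lower. For 17 of the 20 genes described in full, the leading isoform was an annotated transcript. The leading isoform of 9 of the 11 mitotic kinesins lay above sham in every TSCI library, and that of Kif20a and Kif22 did not. The share of all isoforms in that order was not computed, so the count is a description only. Kif15 was carried wholly by ENSMUST00000040717 (35 exons), so its values are those of the gene. In Kif20a an assembled isoform held 0, 2.72 and 8.16 FPKM in TSCI, and the annotated ENSMUST00000167161 held 5.31, 0.373 and 0.0977. In Kif11 an assembled isoform held 7.63 of the 8.52 FPKM of TSCI replicate 1 and was at 0 in 4 of the other libraries.

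Kif5a showed how the assignment to isoforms can switch whole libraries. ENSMUST00000099172 (6310 bases) was at 86.4 and 31.2 FPKM in TSCI replicates 1 and 2 and listed at 0 in the other 4 libraries. An assembled isoform of 6367 bases over almost the same exons was at 0 in those TSCI libraries, at 35.4 FPKM in TSCI replicate 3 and at 190, 10.7 and 31.1 FPKM in sham. Their sum is the gene value above, and no usage change is read from them. With annotated isoforms alone the Kif5a difference was 4.48 on the log2 scale instead of 0.18.

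Circular RNAs gave a second readout from the same libraries. Those made of exons are closed by a splice of an exon end back to the start of the same or an earlier exon. The 71 kinesin circRNAs included 66 made of exons and 5 intronic ones. Both ends of all 66 fell on exon ends of the GENCODE M21 transcript named in the table. The 13 circRNAs of mitotic kinesins came from 8 hosts and summed to 886, 987 and 2631 counts in TSCI against 244, 148 and 148 in sham. Circles of the same host are not independent, and the Kif23 circles of exons 14 to 17 and 16 to 21 share exons. Of the 12 tested, 10 lay above sham in every TSCI library, where 10.1% of all tested circRNAs did (7.69% lay below), and all 12 differences were positive, with a median of 3.02. Testing needed presence in at least 3 libraries, so a circle absent from sham entered only if every TSCI library held it. For such circles, from Kif23 and Kif20b, the lack of overlap was fixed by that rule. No circRNA of 17363 passed an adjusted p of 0.05 in edgeR (0%; lowest 0.0551 over all and 0.405 among kinesins). At an unadjusted p under 0.05 edgeR gave 8 higher kinesin circRNAs, all 8 of mitotic hosts, where 4.64% of all were higher, and 2 lower ones, from Kif26b and Kif16b, where 7.01% were lower. DESeq2 called 8 kinesin circRNAs, 7 higher, all from mitotic hosts (1.15% of all circRNAs were called higher), and 1 lower (0.3%).

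The joins of the 5 kinesin circRNAs of lowest p are shown since it is the join that sets a circle apart from its linear transcript. Each line gives the last 15 bases of the last exon in lower case and then the first 15 bases of the first exon in capitals, 5′ to 3′ on the strand of the gene, from the GRCm38 reference genome; exon numbers are those of the named transcript.
circRNA8262 of Kif11, exons 5 to 6, chr19:37387017-37387435, plus strand: gaatgcttactctagGATCCTCTGGCTGGT
circRNA4690 of Kif23, exons 8 to 9, chr9:61931801-61932187, minus strand: gacaatgtcttacagACTCCCACAATCTAA
circRNA5004 of Kif15, exons 8 to 16, chr9:122977840-122992002, plus strand: gctgaaacactcaagGTCTTATCTAGAGGC
circRNA8241 of Kif20b, exons 3 to 5, chr19:34928861-34929822, plus strand: catatacatttcaagGCAAACAGTTTGGGA
circRNA10111 of Kif23, exons 16 to 21, chr9:61919612-61925143, minus strand: gatgtagaaacaaggATTGAGATTCTGGAG

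The Kif11 circle of exons 5 and 6 had 25, 31 and 133 counts in TSCI and 3, 0 and 0 in sham. It lay above sham in every TSCI library (edgeR adjusted p = 0.405; DESeq2 adjusted p = 0.00103). The Kif15 circle of exons 8 to 16 was the most abundant of the 5, with 171, 147 and 405 counts against 11, 0 and 17, or, as counts scaled for depth (CPM), 41.5 ± 8.8 against 1.83 ± 2.14 CPM (SD, n = 3; edgeR log2 difference 4.52 ± 1.01, adjusted p = 0.422). The Kif23 circle of exons 16 to 21 had 62.5, 43 and 232 counts against 7, 12.5 and 11 (log2 difference 3.11 ± 0.71, adjusted p = 0.422). None of these groups overlapped.

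Among the circles tested, a pair had no count in any sham library. The Kif23 circle of exons 8 and 9 had 30, 24 and 33.5 counts in TSCI and 0 in each sham library, and was at least 9.35-fold higher, taking 3 counts in each sham library as the limit that a count of 0 allows. The Kif20b circle of exons 3 to 5 had 8, 43 and 81 counts against 0 in each sham library, at least 13.0-fold higher by the same limit. These limits cover counting error only. Another Kif20b circle, of exons 12 to 21, was present in both groups, with 206, 137 and 468 counts against 13, 89 and 5. The circle of Kif14 had 0, 1 and 8 counts in TSCI and 0 in sham, too few to be tested.

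**Figure D4:**
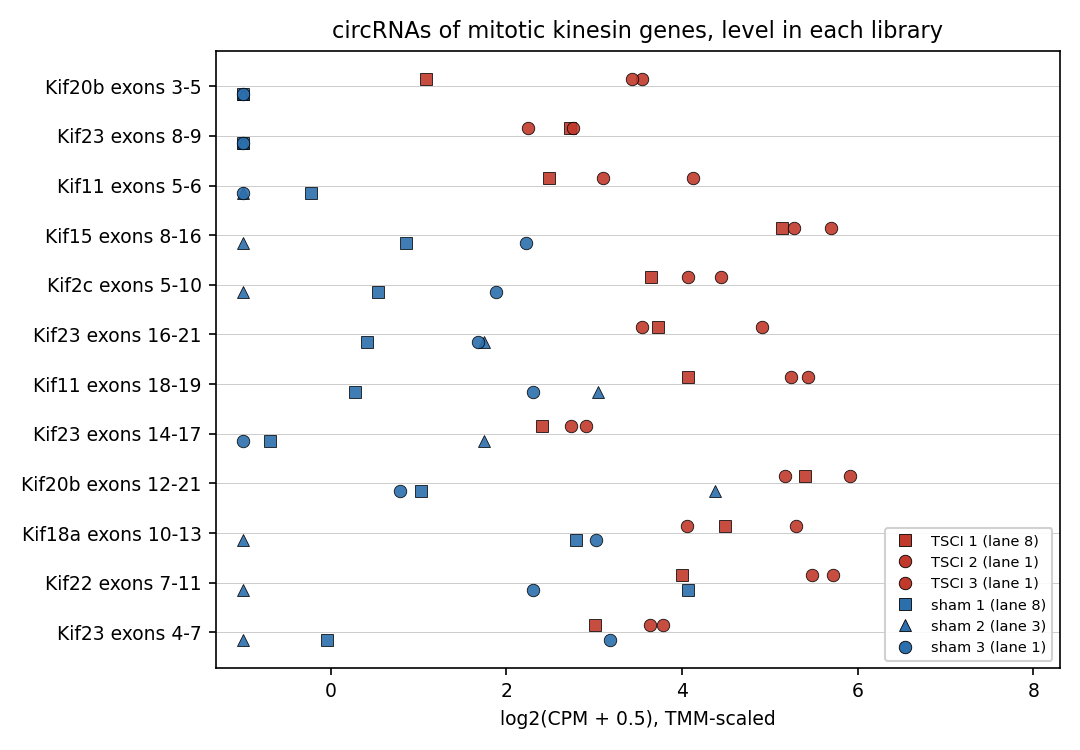
Level of the 12 tested circRNAs of mitotic kinesins in each library, as log2(CPM + 0.5) after TMM scaling, named by host gene and exons, with TSCI in red, sham in blue and the marker shape giving the lane. Red lies to the right of blue in 10 of the 12; in Kif22 exons 7-11 and Kif23 exons 4-7 the groups overlap, and a value of -1 means 0 counts.

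circRNAs of transport kinesins were the abundant ones and did not separate. Of 48, from 12 hosts, 0 passed in edgeR or DESeq2, 0 lay wholly above or below sham, and their median difference was -0.0045 on the log2 scale. The 5 most abundant kinesin circRNAs came from Kif5b, Kif1b (a pair of circles that share exons), Kif13b and Kif5c, with edgeR adjusted p of 0.665 to 0.997. By count 40 of the 48 were highest in sham replicate 1. Unlike the linear values, these counts were not scaled for depth, and sham replicate 1 had the most circRNA counts in all. As CPM, not all of the 40 were highest there. In the group of cilia and other functions, 4 of 10 circRNAs lay below sham in every TSCI library, 2 of Kif6 and 2 of Kif26b, where 7.69% of all circRNAs did. The lowest p among them was for the single-exon circle of Kif26b (chr1:178678826-178679359), with 14, 48 and 23 counts in TSCI against 132, 212 and 215 in sham (edgeR log2 difference -2.69 ± 0.77, adjusted p = 0.422; DESeq2 adjusted p = 0.0427). The Kif6 circles share exons with each other, so they are not independent.

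The balance between mitotic and transport kinesins differed in both readouts. Mitotic kinesins made up 7.05%, 11.2% and 15.4% of the summed kinesin FPKM in TSCI and 0.428%, 2.35% and 1.06% in sham. Of the kinesin circRNA counts they made up 4.63%, 7.78% and 9.94% in TSCI against 0.576%, 1.59% and 1.36% in sham. Every TSCI share was above every sham share, and an exact permutation test of 3 against 3 cannot give a two-sided p below 0.1. A share within a library does not depend on the scaling of that library, and the lane 8 library had the lowest share in each group in each readout.

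**Figure D5:**
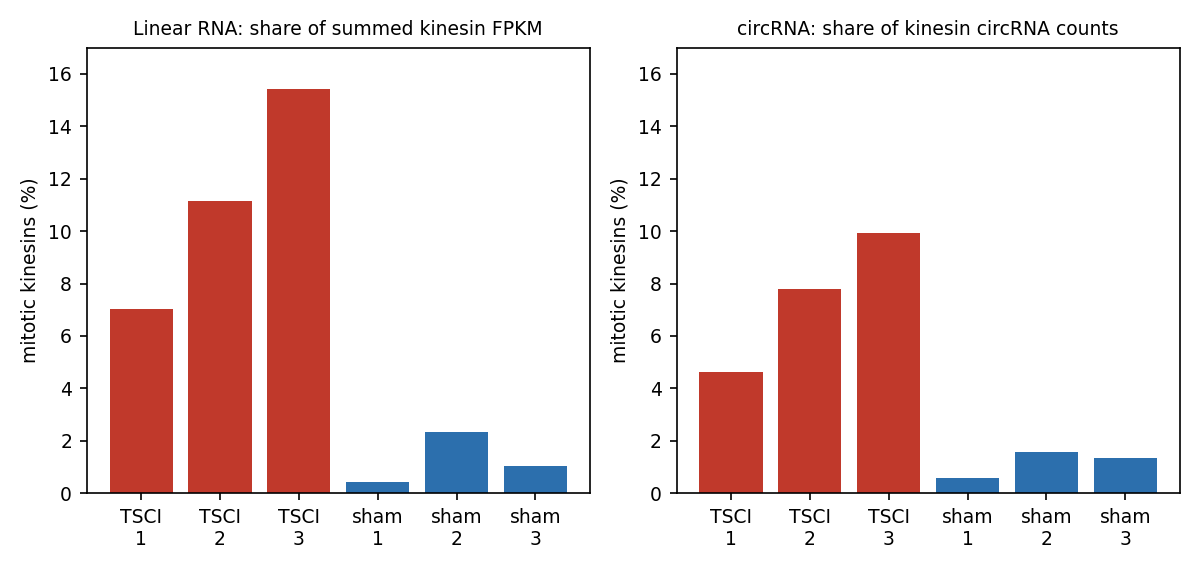
Share of the mitotic kinesins in the summed FPKM of all 36 kinesin genes (left) and in the counts of all 71 kinesin circRNAs (right), in percent per library, with bars starting at 0. The 3 TSCI bars (red) run from 7.05% to 15.4% and from 4.63% to 9.94%, above the 3 sham bars (blue), which reach at most 2.35% and 1.59%.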

How the data were processed

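Ribosome-depleted, stranded total RNA libraries were made from Trizol extracts, per the labels' protocols; the aligners HISAT2 and TopHat and the assembler StringTie are named in the submitters' processing notes, with no version. The authors deposited FPKM and coverage (signal) per isoform, and per circRNA a count and an FPKM; the latter was not used here. As only 33.8% of the deposited circRNA counts were whole (within 1e-06), they were taken for estimated counts and rounded before testing, with the test for counts kept. The circRNA caller, the reads it counted and the genome build were not given in the sources used here. For 94.6% of 78098 transcript IDs the position was that in GENCODE M21 (GRCm38), so positions are given in that build.

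Gene values were the summed FPKM of isoforms with class codes =, j, c, o or e, leaving out intronic, antisense and nearby isoforms. Aligned bases were inferred from FPKM, coverage and isoform length. limma 3.58.1 (trended variance) tested log2(FPKM + 0.5) of genes or isoforms with a mean of at least 0.5 FPKM, which understates the change of low genes. edgeR 4.0.16 (TMM, quasi-likelihood) tested circRNAs with at least 10 counts, present in at least 3 libraries, with DESeq2 1.42.0 as an alternative; the SE of an edgeR difference is the difference divided by the square root of F. P-values were adjusted by Benjamini-Hochberg over each whole table, with a threshold of 0.05. An FPKM of exactly 0 can be a failed estimate. R 4.3.3 was used, and the functions were tested on simulated data. Genes described in full were those past the threshold and, in each role group, those without overlap, the 3 of lowest p and the 2 of highest mean; circRNAs were the 5 of lowest p and the 5 of highest count. Other circRNAs, the partner genes and the remaining carriers with values were chosen after their values were seen. The members and the gene lists were chosen with earlier results of these data known. Alternatives covered pseudocounts, filters, scalings, isoform classes, the lane, the replicate number and each library left out.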

Additional observations from a re-analysis of the deposited data

How the results depend on the processing

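The count of kinesin genes past the threshold, 1 with all libraries, was 0 with no filter, with exactly matching isoforms only and with isoforms of every class, 2 with robust moderation (Kif11 and Kif20a), 6 with lane 8 as a covariate and 4 without the lane 8 libraries; over the libraries left out it ran from 0 to 6. The count for all genes, 149, was 0 with no filter, 74 with median-ratio scaling, 61 with quantile normalization, 644 with lane 8 as a covariate, 616 without the lane 8 libraries, 43 with exactly matching isoforms and 24 with every class, and ran from 14 to 1448 over the libraries left out. The median difference of all genes, 0.44, was 0.07 with median-ratio scaling and -0.03 with quantile normalization. The mitotic median, 2.26, was 3.05 with a pseudocount of 0.1 and 1.72 with quantile normalization, and 1.72 to 3.05 bounds it over the alternatives; the cause of these moves was not tested. The differences of all mitotic kinesins described with a test kept their sign in all 18 alternatives. Kif1b, 0.09, turned to -0.38 and -0.31 with median-ratio and quantile scaling; without TSCI replicate 1, sham replicate 2 or sham replicate 3 it ran down to -0.41, with the other libraries left out it ran up to 0.72, and with exactly matching isoforms only it was 1.80. Kif5a, 0.18, turned to -0.28 and -0.36 with these scalings and ran from -0.75 to 1.30 over the libraries left out. Kif2a, 0.43, turned to -0.028 with median-ratio scaling. For circRNAs, edgeR called 0; DESeq2 called 251 (199 higher, 52 lower), 8 of them from kinesins, and edgeR with library totals as the only scaling called 1. No kinesin isoform passed under any alternative run.

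With the replicate number as a replicate block, 963 genes and 8 kinesins passed (Kif11, Kif15, Kif18a, Kif20a, Kif22, Kif23, Kif2c and Kif4). The same-numbered libraries correlated in their deviations from the group means at 0.491, 0.284 and 0.0775, and TSCI replicate 2 correlated better with sham replicate 3 (0.361), so the numbers were not taken as pairs.

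The 3 libraries a group, with a single sham library in lane 1, limit what can be told apart, and sham values of mitotic kinesins rest on few aligned bases.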

Other observations

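Isoforms that the gene values left out, nearly all within introns, were also assembled in 27 of the kinesin genes (220 isoforms). Their summed level was highest in TSCI replicate 1 in 17 of the 27 genes, and in 5 of the 7 mitotic kinesins that had any. In Kif4 they stood at 15.8 FPKM in TSCI replicate 1, above the 3.65 FPKM of its other isoforms there, and at 0 in the other 5 libraries. In Kif18a they stood at 23.1 FPKM in TSCI replicate 1 against at most 0.227 FPKM elsewhere. In Kif15 the order was the other way, with 14.2 FPKM in sham replicate 2 and at most 0.236 FPKM in a TSCI library. For Kif13a TSCI libraries had 79.7, 7.91 and 20.0 FPKM of them, against 14.1, 16.9 and 14.3 for sham. TSCI replicate 1 was a lane 8 library with many intronic bases; sham replicate 1, the other one, was highest in 1 of the 27 genes.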
